A study of Mus musculus with 24 samples.

Results

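The endothelium of Sox17 knockout brains was followed between the embryonic stage E15.5 and postnatal day 5 (P5). The 3 libraries of the group P5_KO were compared with the 3 libraries of the group E15.5_KO, 6 of the 24 libraries of the series, chosen by their labels alone. Both groups were Sox17flox/flox/Cdh5(PAC)-Cre-ERT2+ mice, named sox17iECKO or KO: floxed Sox17 is deleted by a recombinase that an endothelial Cdh5 promoter drives and tamoxifen switches on. P5_KO pups had 100 µg tamoxifen under the skin at postnatal day 1, so 4 days passed before harvest. E15.5_KO embryos came from dams given 2 intraperitoneal injections of 1 mg tamoxifen at days 11.5 and 13.5 of gestation, 4 and 2 days before harvest. The KO change was set beside that of P5_wt and E15.5_wt, 6 libraries from animals with the same floxed alleles and the same tamoxifen but no Cre. All 12 fractions were made with the same neural tissue dissociation kit, had erythrocytes removed, were depleted of CD45-positive cells on beads and were then captured on CD31 beads. Stage, tamoxifen schedule and the time since tamoxifen change together in these groups and cannot be told apart. The labels call the libraries independent biological replicates without naming animals, litters or pools, so p-values measure the spread between these libraries.

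Endothelial cells of the brain build the blood-brain barrier. They are joined by tight junctions, carry nutrients through dedicated transporters, keep vesicle traffic low and pump foreign compounds back to the blood. The programme starts in the embryo under Wnt ligands of neural cells, which act through beta-catenin, and it matures after birth as pericytes and astrocytes cover the vessels and sprouting slows. Sox17 belongs, with Sox7 and Sox18, to the SoxF transcription factors, which act in arterial identity and are linked to Notch and Wnt signalling.

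Depth in the 6 KO libraries ranged from 15189111 to 19830600 counts on 45468 genes, with 20771 to 22600 genes detected, and a count of 0 allowed up to 0.151 to 0.198 CPM of the raw library total. All other CPM values are counts scaled to the library size after TMM. Floors and intervals cover counting error only. Replicates of a KO group correlated across genes at Pearson's r of 0.981 to 0.99. Along the first principal component of the 6 libraries, with 84.6% of the variance, P5_KO and E15.5_KO lay apart. The second held 5.84% and set E15.5_KO replicate 3 (at -44.9) apart from E15.5_KO replicates 1 and 2 (at 26.3 and 21.4).

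Between P5_KO and E15.5_KO, edgeR's quasi-likelihood test with Benjamini-Hochberg adjustment called 11799 of 17159 genes tested at an adjusted p under 0.05, 68.8% of them, with 6413 higher (37.4%) and 5386 lower (31.4%) at P5. At least 4-fold changes were seen in 647 genes that rose and 1557 that fell. Of the 11799 called genes, 9900 were also called without any 1 of the 6 libraries. The CPM of the P5_KO and E15.5_KO libraries did not overlap for 12449 genes, 72.6% of those tested. Counts of members below are to be read against these shares.

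The fractions differed in the markers of several cell types. All 25 genes of an endothelial identity list rose, and all 15 neuronal markers fell. The identity list summed to 23327, 25485 and 24959 CPM in P5_KO libraries, against 8524, 7118 and 7062 CPM in E15.5_KO libraries. Neuronal markers summed to 363, 345 and 394 CPM in P5_KO libraries, against 2437, 2586 and 3165 CPM in E15.5_KO libraries. Both lists separated the stages without overlap, in opposite directions. In bulk RNA, fewer cells of a type and less RNA per cell cannot be told apart.

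Each change was therefore computed with a pair of scalings. TMM scaling sets most genes of the whole fraction to a common level, and the median log2 fold change of all 17159 genes tested was then 0.10. Identity scaling holds the mean log count of the 25 identity genes level instead, and the median of all genes was then -1.41, a shift of -1.51. Single members could still move, with 6 of the 25 higher and 7 lower by it. The identity-scaled value of a member, such as Cldn5, is relative to a set that includes it. By identity scaling 655 genes were higher at P5 (3.82%) and 13816 lower (80.5%). All 655 were also among the 6413 higher by TMM, and all 5386 lower by TMM were lower by either scaling. A further 3831 genes were higher by TMM and lower by identity scaling. In what follows "rose" and "fell" refer to the TMM fit at an adjusted p under 0.05. Changes are on the log2 scale, many with their SE and the identity-scaled value beside them. Changes, sums and member counts given without an identity-scaled value are by TMM alone.

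**Figure D1:**
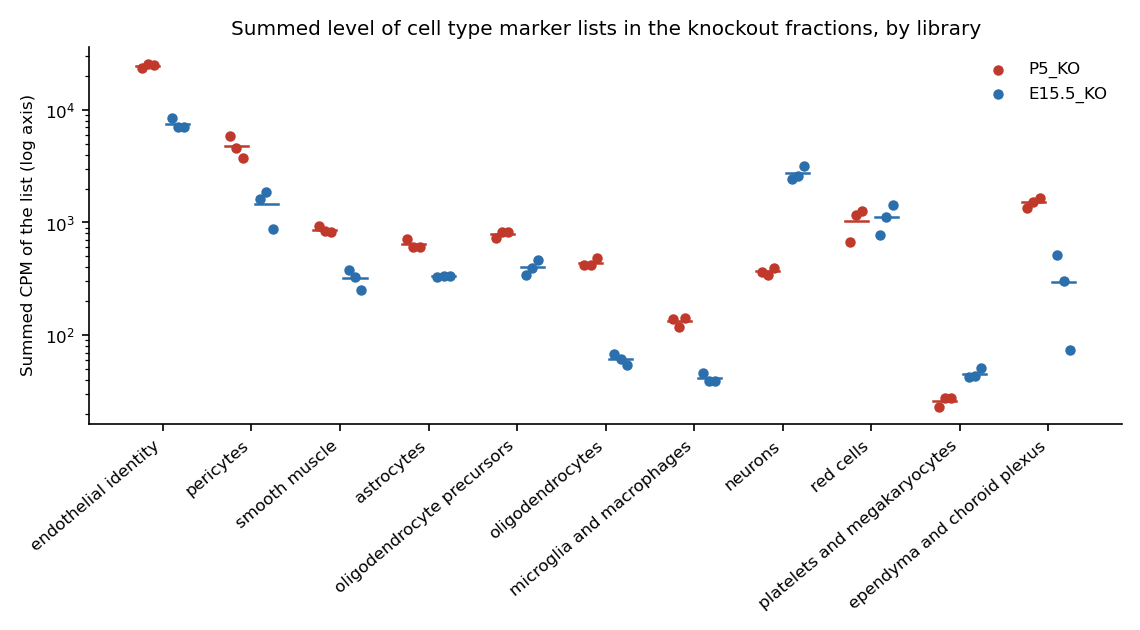
Summed CPM (log axis) of marker lists in each library, with P5_KO (red) left of E15.5_KO (blue) and lines at group means. The sums on TMM-scaled library sizes were higher at P5 for endothelial identity, mural, glial and microglial lists and lower for neuronal and platelet lists, while red cell sums overlapped. Scaling to the identity genes lowers every P5_KO sum relative to E15.5_KO.

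Sox17 itself (ENSMUSG00000025902, mm10 chromosome 1, 4490931 to 4497354, minus strand), the deleted gene, had 15.1, 19.1 and 15.8 CPM in P5_KO libraries and 10.6, 8.33 and 8.41 CPM in E15.5_KO libraries. The wt libraries held 306, 227 and 298 CPM at P5 and 78.3, 85.5 and 108 CPM at E15.5, so each KO library lay under every wt library of its stage. Within the KO, residual Sox17 was higher at P5 by 0.86 ± 0.28 on the log2 scale (SE; adjusted p 0.0084) by TMM and lower by identity scaling, at -0.69. The counts are per gene and do not separate recombined from intact transcripts.

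The other SoxF genes also separated by stage. Sox7 had 156, 156 and 156 CPM in P5_KO libraries and 104, 85.8 and 83.5 CPM in E15.5_KO libraries. Sox18 had 223, 239 and 223 CPM in P5_KO libraries and 174, 144 and 86.7 CPM in E15.5_KO libraries. Neither gene overlapped. Both rose by TMM, by 0.78 and 0.76, and both were lower by identity scaling, each at -0.78.

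Transporters of the barrier gave the largest endothelial rises. Slco1a4 (ENSMUSG00000030237, mm10 chromosome 6, 141805440 to 141856199, minus strand), an organic anion transporter of the brain capillary, had 429, 361 and 352 CPM in P5_KO libraries, against 2.99, 0.891 and 0.568 CPM in E15.5_KO libraries. It rose 243-fold, with a log2 fold change of 7.93 ± 0.31 (adjusted p 2.6e-15) and 6.46 by identity scaling. Slc16a1 (ENSMUSG00000032902, mm10 chromosome 3, 104638668 to 104658462, plus strand), the monocarboxylate transporter that carries lactate and ketone bodies, had 2920, 2689 and 2567 CPM in P5_KO libraries, against 15.8, 14.8 and 24 CPM in E15.5_KO libraries. Both were low in every E15.5_KO library and high in every P5_KO library. Slc16a1 rose by 7.22 ± 0.22 (adjusted p 1.3e-16; 5.64 by identity scaling).

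Slco1c1, which carries thyroid hormone, had 2667, 2386 and 2381 CPM in P5_KO libraries and 234, 193 and 168 CPM in E15.5_KO libraries (log2 3.64 ± 0.14). The organic anion exporter gene Abcc6 held 110, 120 and 132 CPM at P5_KO, against 12.6, 13 and 11.5 CPM at E15.5_KO (3.28 ± 0.12). The efflux pump gene Abcb1a, P-glycoprotein, reached 588, 617 and 622 CPM in P5_KO libraries, against 113, 96.8 and 84.8 CPM in E15.5_KO libraries (2.63 ± 0.12). All 3 were higher by identity scaling too, at 2.09, 1.72 and 1.08. Slc2a1, the glucose transporter GLUT1, had 1762, 1816 and 2063 CPM in P5_KO libraries and was already abundant in E15.5_KO libraries, at 1226, 944 and 992 CPM. Its rise was smaller, 0.84 ± 0.12 (adjusted p 2.7e-06), and turned to -0.72 by identity scaling. On the length-adjusted TPM scale, the level of Slc2a1 was 1704 ± 131 TPM in P5_KO (SD, n = 3) and 1217 ± 168 TPM in E15.5_KO, and that of Slc16a1 was 1958 ± 166 TPM in P5_KO and 16.7 ± 4.52 TPM in E15.5_KO. Slc16a1 was thus far below Slc2a1 in E15.5_KO libraries, and their levels were close in P5_KO libraries.

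Over the whole transporter list, 32 of 36 genes tested rose and 3 fell, with a median log2 fold change of 1.60. Identity scaling left 14 higher and 11 lower, with a median of 0.04. The 3 that fell were Slc29a4, a monoamine transporter (-1.12), Lrp1, an endocytic receptor widely expressed in neural cells (-1.07), and Ager, a receptor of glycated proteins (-0.69). Here and below, genes named because few of a list fell or were not called were chosen after their values were seen.

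**Figure D2:**
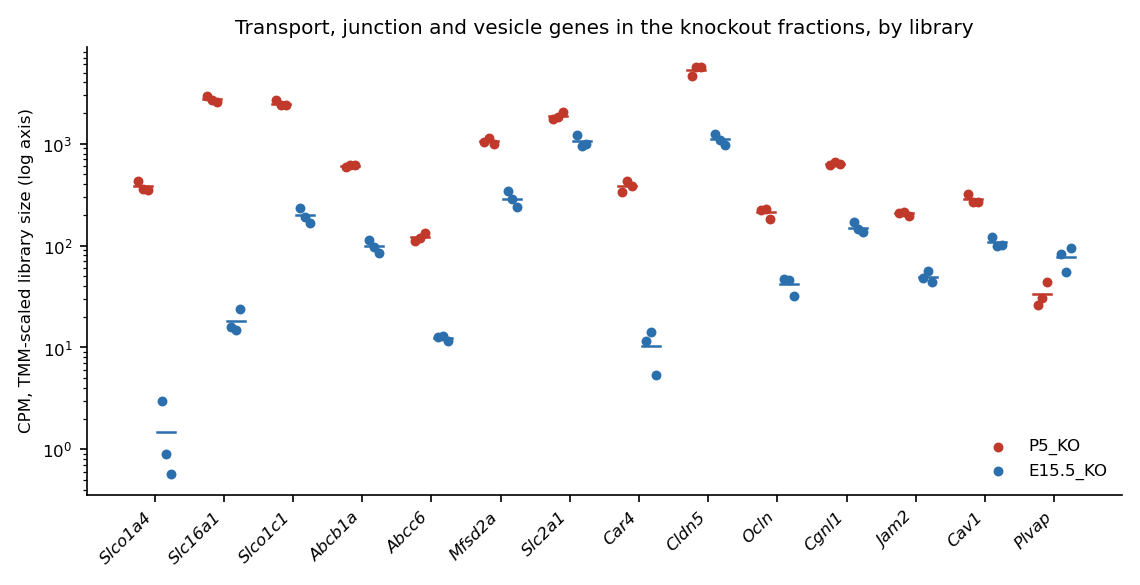
CPM per library (log axis) of transport, junction and vesicle genes, P5_KO (red) left of E15.5_KO (blue), with lines at group means. By TMM scaling each gene except Plvap was higher in every P5_KO library than in any E15.5_KO library. By identity scaling Slc2a1 (-0.72) and Cav1 (-0.15) had negative log2 fold changes, and Plvap was lower by either scaling.

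Most junction genes rose, and Cgn fell. Cldn5, the main claudin of brain endothelium, had 4627, 5614 and 5617 CPM in P5_KO libraries, against 1241, 1093 and 968 CPM in E15.5_KO libraries. Ocln, occludin, had 226, 229 and 184 CPM at P5_KO and 47.1, 45.5 and 32 CPM at E15.5_KO. Neither gene overlapped between stages. Cldn5 rose by 2.26 ± 0.14 (adjusted p 3.5e-12; 0.70 by identity scaling) and Ocln by 2.36 ± 0.15 (7.5e-12; 0.80). Cgnl1, paracingulin, and Jam2, a junctional adhesion molecule, rose by 2.08 and 2.08, and by 0.52 and 0.51 with identity scaling. Cdh5 encodes VE-cadherin, the adherens junction cadherin, and rose less, by 1.24 ± 0.10, with an identity-scaled value of -0.32. Of 23 junction genes tested, 18 rose and 3 fell (median 1.17), and 5 were higher and 14 lower by identity scaling (median -0.40). Those that fell were Cgn, cingulin, a scaffold of epithelial tight junctions (-3.09), Cldn3 (-1.04) and Jam3 (-0.46).

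Among vesicle genes, Mfsd2a rose and Plvap fell by either scaling. Mfsd2a, the lipid transporter that keeps transcytosis low, had 1045, 1135 and 1004 CPM in P5_KO libraries and 342, 286 and 241 CPM in E15.5_KO libraries. It rose by 1.87 ± 0.14 (adjusted p 9.3e-11; 0.32 by identity scaling). Plvap, the diaphragm protein of fenestrae and leaky vessels, had 26.4, 30.7 and 43.6 CPM in P5_KO libraries and 82.3, 54.9 and 95.4 CPM in E15.5_KO libraries. It fell, with a change of -1.20 ± 0.30 (adjusted p 0.0012) and -2.77 by identity scaling. Caveolin genes rose with the identity genes: Cav1 by 1.40 and Cav2 by 1.85 by TMM, with identity-scaled values of -0.15 and 0.30 that did not pass. In all 10 of 12 vesicle genes rose (median 0.77), and by identity scaling only Mfsd2a was higher while 9 were lower (median -0.80).

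Wnt targets rose in most cases, by very different amounts. Notum, which encodes a secreted Wnt-inactivating enzyme, had 130, 152 and 130 CPM in P5_KO libraries, against 13, 11.7 and 7.28 CPM in E15.5_KO libraries (log2 3.67 ± 0.23; 2.13 by identity scaling). Apcdd1, a membrane inhibitor of Wnt signalling, had 2951, 3191 and 3508 CPM in P5_KO libraries and 1038, 835 and 701 CPM in E15.5_KO libraries (1.91 ± 0.16; 0.35). Both were clear of overlap. Lef1, the nuclear partner of beta-catenin, rose by 0.70 ± 0.14 by TMM and was lower by identity scaling, at -0.86. Axin2, the general feedback target, had 133, 121 and 108 CPM in P5_KO libraries and 116, 107 and 88.8 CPM in E15.5_KO libraries. These overlapped, the difference of 0.21 ± 0.15 did not pass (adjusted p 0.2), and identity scaling gave -1.35 (2.9e-08). Of 25 targets tested 21 rose and none fell (median 1.29), and by identity scaling 5 were higher and 10 lower (median -0.27).

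Receptors and effectors of the pathway split evenly. Of 23 tested, 9 rose and 10 fell, with a median of -0.06. The endothelial receptor parts rose: Fzd4, the receptor of norrin and Wnt7 signals, Adgra2 (Gpr124), its co-receptor in brain vessels, and Tspan12, which helps norrin signalling. Fzd4 had 80.9, 82.9 and 83.8 CPM in P5_KO libraries and 21.8, 17.3 and 22.1 CPM in E15.5_KO libraries, a rise of 2.01 ± 0.11 (adjusted p 5.6e-13). Adgra2 and Tspan12 rose by 1.72 and 1.70. Of the list, only Fzd4 was higher by identity scaling, at 0.45. Bcl9, a co-activator of beta-catenin that neural cells also express, had 37.8, 38.5 and 43.9 CPM in P5_KO libraries and 121, 119 and 168 CPM in E15.5_KO libraries and fell (-1.76 ± 0.16; -3.34 by identity scaling). Neuronal markers fell in the same libraries, and their part in this fall was not tested.

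Arterial genes were mixed. Of 27 tested, 22 rose and 2 fell by TMM (median 1.04), and by identity scaling 7 were higher and 15 lower (median -0.48). Eln, elastin, had 449, 396 and 523 CPM in P5_KO libraries and 34.6, 25.7 and 21.8 CPM in E15.5_KO libraries. Mgp, the matrix Gla protein, had 32.4, 32.2 and 27.7 CPM in P5_KO libraries and 1.66, 2.05 and 0.413 CPM in E15.5_KO libraries. These matrix genes, which smooth muscle also expresses, rose by 4.05 ± 0.27 and 4.35 ± 0.29 (2.51 and 2.86 by identity scaling). Smooth muscle markers summed to 923, 832 and 827 CPM in P5_KO libraries and 382, 327 and 252 CPM in E15.5_KO libraries, and their part in the rise was not tested. Gja5, connexin 40, a defining arterial gap junction gene, had 5.38, 4.09 and 4.56 CPM in P5_KO libraries and 5.76, 3.16 and 8.72 CPM in E15.5_KO libraries. The groups overlapped and the difference of -0.32 ± 0.33 did not pass (adjusted p 0.4). Without E15.5_KO replicate 3 it was 0.08. Cytl1, a secreted cytokine-like protein, had 99 counts in P5_KO libraries and none in E15.5_KO libraries, so it was at least 41.8-fold higher on a floor of 3 counts over the group, and it lies above the list's median by the fitted value or by this bound.

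Other arterial genes that were not called were Gja4 (0.33) and Hey2, a Notch effector (0.13). Those that fell were Efnb2, the arterial ephrin ligand (-1.03), and Stmn2, which is on the neuronal list as well (-2.62). Epas1, a hypoxia-inducible factor of endothelium, rose by 2.01 ± 0.11 (0.45 by identity scaling), with 1904, 1965 and 1902 CPM in P5_KO libraries and 546, 449 and 441 CPM in E15.5_KO libraries.

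Capillary and venous genes gave a further large rise. Car4, the membrane carbonic anhydrase of capillaries, had 333, 434 and 387 CPM in P5_KO libraries, against 11.5, 14.1 and 5.37 CPM in E15.5_KO libraries. It rose by 5.20 ± 0.33 (adjusted p 5.2e-12; 3.65 by identity scaling), with no overlap. The amino acid transporter gene Slc38a5 rose by 1.38 ± 0.14 by TMM and had -0.18 by identity scaling, which did not pass. On the venous and capillary list 15 of 20 tested genes rose and 2 fell (median 1.34). By identity scaling 3 were higher and 7 lower (median -0.22). Nr2f2, the venous transcription factor COUP-TFII, was not called (-0.21; adjusted p 0.23), and Ackr1, the venular chemokine receptor, fell (-1.28).

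Notch pathway genes had 17 of 24 higher and 3 lower by TMM (median 0.77), while identity scaling left none higher and 22 lower (median -0.79). Notch1 rose to 657, 742 and 674 CPM in P5_KO libraries, against 335, 300 and 279 CPM in E15.5_KO libraries, a change of 1.18 ± 0.13 by TMM and -0.38 by identity scaling. The ligand gene Dll1 had 21.4, 19.1 and 24.4 CPM in P5_KO libraries and 123, 114 and 134 CPM in E15.5_KO libraries. Dll1 and Dtx1, a ubiquitin ligase of the pathway, fell, with changes of -2.50 ± 0.17 and -2.53 ± 0.17. Neural progenitors express Dll1. The progenitor list summed to 3033, 3125 and 3266 CPM in P5_KO libraries and 1615, 1519 and 1448 CPM in E15.5_KO libraries. Its members were split, with 6 of 13 higher and 5 lower. Notch1 itself and the immediate early gene Btg2 (2.74) are on this list and rose. Eomes (-2.70) and Sox1 (-2.14) fell, as Dll1 did. The sum therefore does not measure progenitors, and their part was not tested.

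Most sprouting genes rose by TMM. Flt1, Kdr, Tek and Tie1, the VEGF and angiopoietin receptors, rose by 1.90, 1.37, 1.75 and 1.49 by TMM, and stood at 0.34, -0.19, 0.19 and -0.07 by identity scaling. Vegfa, the ligand that neural cells make, had 38.6, 45.3 and 49.6 CPM in P5_KO libraries and 148, 147 and 173 CPM in E15.5_KO libraries and fell (-1.80 ± 0.19, adjusted p 1.9e-08; -3.38 by identity scaling). Angpt2, a destabilising ligand of sprouting endothelium, had 120, 63.4 and 65 CPM in P5_KO libraries and 32.9, 24.4 and 42.8 CPM in E15.5_KO libraries. P5_KO replicate 1 was the highest, and the groups did not overlap (1.31 ± 0.25, adjusted p 6.2e-05; -0.26 by identity scaling). Esm1, a tip cell marker, overlapped between stages, at 14.3, 5.13 and 6.3 CPM in P5_KO libraries and 5.15, 4.46 and 9.86 CPM in E15.5_KO libraries. Its difference of 0.40 ± 0.47 did not pass, was -1.16 by identity scaling and was -0.17 without P5_KO replicate 1. The list had 22 of 29 higher and 1 lower (median 1.14), and 3 higher and 17 lower by identity scaling (median -0.44).

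Proliferation genes rose by TMM and were lower by identity scaling. Mki67, the marker of cycling cells, had 223, 243 and 203 CPM in P5_KO libraries and 146, 163 and 148 CPM in E15.5_KO libraries. The rise of 0.55 ± 0.16 (adjusted p 0.0036) was -1.03 by identity scaling (adjusted p 1.3e-05). Pcna, the replication clamp, and Cdk1, the mitotic kinase, rose by 1.19 and 0.83 by TMM and stood at -0.37 and -0.73 by identity scaling. Of 45 cell cycle genes, 34 rose and 1 fell by TMM (median 0.52), whereas identity scaling gave none higher and 44 lower (median -1.04). Cycling cells of other types in the fraction are counted in these values.

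Of 14 cell cycle inhibitors 10 rose and 2 fell by TMM (median 0.82), and 3 were higher and 8 lower by identity scaling. Cdkn2b, the p15 inhibitor, had 28.9, 34.6 and 31.5 CPM in P5_KO libraries and 2.05, 3.03 and 1.65 CPM in E15.5_KO libraries (3.73 ± 0.17; 2.21 by identity scaling). Btg2, an antiproliferative gene that is also an immediate early gene, rose by 2.74 ± 0.12 (1.17). Cdkn1c, the imprinted p57 inhibitor, had 37.1, 35.8 and 39.9 CPM in P5_KO libraries and 124, 106 and 90.1 CPM in E15.5_KO libraries and fell (-1.50 ± 0.14, adjusted p 1.9e-09; -3.05). In wt fractions Cdkn1c changed by -0.67 ± 0.13, and the difference between genotypes did not pass (adjusted p 0.21).

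Imprinted and oncofetal genes fell as a group. Of 26 tested, 19 fell and 2 rose (median -1.76), with 25 lower by identity scaling (median -3.33). H19, the imprinted long RNA of the Igf2 locus, had 11, 10.1 and 16.7 CPM in P5_KO libraries, against 274, 173 and 233 CPM in E15.5_KO libraries. Igf2bp2, an RNA-binding protein of fetal growth, had 4.32, 5.34 and 4.95 CPM in P5_KO libraries, against 69.2, 72.2 and 79.7 CPM in E15.5_KO libraries. Neither overlapped, and both fell. The change of H19 was -4.15 ± 0.24 (adjusted p 1.3e-12; -5.70 by identity scaling) and that of Igf2bp2 -3.89 ± 0.20 (2.0e-13; -5.45). Magel2 and Ndn, imprinted genes of the Prader-Willi region that neurons express strongly, had changes of -6.97 ± 0.42 and -2.56 ± 0.15, and the part of the neuronal markers in these was not tested.

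Igf2, a fetal growth factor of vessel walls and meninges, was one of the 2 that rose by TMM, with 766, 575 and 640 CPM in P5_KO libraries and 431, 435 and 238 CPM in E15.5_KO libraries. It changed by 0.84 ± 0.30 (adjusted p 0.017) by TMM and -0.71 by identity scaling. Without E15.5_KO replicate 3 or without P5_KO replicate 1 its adjusted p was 0.1 and 0.066, and it was called in the other 4 fits without 1 KO library. The other was Afp, the fetal serum protein (1.80). Of the insulin-like growth factor axis 6 of 14 rose and 4 fell (median 0.36; by identity scaling none higher and 12 lower). The receptor substrates Irs1 (-1.43) and Irs2 (-1.55) fell, and the binding protein genes Igfbp7 (1.44; -0.11 by identity scaling) and Igfbp4 (1.21; -0.35) rose by TMM.

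Most matrix genes rose by TMM, and fewer did by identity scaling. Fn1, fibronectin, had the largest rise in CPM of the genes tested, with 6578, 8109 and 8658 CPM in P5_KO libraries and 2217, 1737 and 1997 CPM in E15.5_KO libraries (1.97 ± 0.14; 0.41 by identity scaling). Sparc, a matrix glycoprotein, and Lamb2, a laminin of mature basement membranes, rose by 1.89 and 1.95 (0.33 and 0.40). The matrix list had 25 of 34 higher and 2 lower (median 1.09), but 6 higher and 18 lower by identity scaling (median -0.46). Of the TGF-beta and BMP list 21 of 30 rose and 1 fell (median 0.94; by identity scaling 4 and 20, median -0.59). Tgfb2, a ligand, and its receptors Tgfbr2 and Tgfbr3 rose by 2.05, 1.89 and 2.24, and by 0.49, 0.33 and 0.69 with identity scaling. Pericytes also make matrix. Their markers summed to 5900, 4617 and 3772 CPM in P5_KO libraries and 1614, 1856 and 870 CPM in E15.5_KO libraries, and their part was not tested.

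Metabolic lists moved in different directions. The rate-limiting carnitine transferase gene of fatty acid oxidation, Cpt1a, had 369, 419 and 413 CPM in P5_KO libraries and 107, 88.5 and 75.3 CPM in E15.5_KO libraries (2.15 ± 0.13; 0.59 by identity scaling). Pdk4, a mitochondrial kinase that inhibits pyruvate dehydrogenase, had 19.8, 20.3 and 20.3 CPM in P5_KO libraries and 2.38, 2.94 and 1.7 CPM in E15.5_KO libraries (3.03 ± 0.22; 1.51). Of the lipid list 19 of 24 rose and 3 fell (median 1.32; by identity scaling 6 higher and 10 lower). Cholesterol synthesis genes fell. Hmgcs1, an early enzyme of the pathway, had 67.7, 88.5 and 71.6 CPM in P5_KO libraries and 248, 300 and 260 CPM in E15.5_KO libraries. The stages did not overlap, with a change of -1.83 ± 0.14, and of -3.40 by identity scaling. On that list 15 of 23 fell and 2 rose (median -0.71; 22 lower by identity scaling).

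Glycolytic and hypoxia genes were divided, with 10 of 30 higher and 10 lower (median 0.04; by identity scaling 1 higher and 28 lower). Hk2, a hexokinase, and Pfkp, a phosphofructokinase, fell, with changes of -2.27 ± 0.24 and -1.09 ± 0.13. Hk2 held 1.93, 2.22 and 1.91 CPM in P5_KO libraries and 10.8, 8.24 and 11.5 CPM in E15.5_KO libraries. Respiratory chain genes rose modestly by TMM, 22 of 27 with a median of 0.62, and all 27 were lower by identity scaling (median -0.95). Ribosomal protein genes rose in 36 of 36 cases (median 1.07), against 30 lower by identity scaling (median -0.49). They have many near-identical pseudogene copies that could share reads.

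Genes of antigen presentation by MHC class I rose, most of them by either scaling. All 19 of 19 genes tested rose by TMM (median 2.22), and by identity scaling 11 were higher and 2 lower (median 0.65). The list holds the class I heavy chains, their light chain B2m, the peptide pump Tap1 and Tap2, peptide-trimming and proteasome genes, and Cd74, which belongs to class II. H2-Q4, a class I heavy chain gene, had 73.9, 99.2 and 123 CPM in P5_KO libraries, against 17, 14.4 and 14.1 CPM in E15.5_KO libraries (2.69 ± 0.18; 1.14 by identity scaling). Tap2 had 45.6, 48.3 and 56.8 CPM in P5_KO libraries and 10.6, 6.91 and 5.42 CPM in E15.5_KO libraries (2.71 ± 0.18; 1.18). Every P5_KO library was above every E15.5_KO library for both. H2-T23, a non-classical heavy chain gene, had 45.5, 50.3 and 69.4 CPM in P5_KO libraries and 8.03, 10.5 and 7.74 CPM in E15.5_KO libraries (2.63 ± 0.16; 1.07). Erap1, which trims peptides for class I, rose by 2.22 ± 0.13 (0.65). The class I heavy chains are close paralogs, so reads can be shared or lost between them and single values are uncertain.

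The promoters of these genes, which rose together, were searched for the core of the interferon regulatory factor site, AANNGAAA, read on either strand. Windows run from 250 bases before to 50 after each start (sequences from RefSeq, build GRCm38.p6), and capitals mark the matches. The sequences of 4 genes with a match are given: chr17:34000298-34000597 (minus strand), chr17:35379367-35379666 (plus), chr17:36032652-36032951 (minus) and chr2:122147437-122147736 (plus).
H2-K1: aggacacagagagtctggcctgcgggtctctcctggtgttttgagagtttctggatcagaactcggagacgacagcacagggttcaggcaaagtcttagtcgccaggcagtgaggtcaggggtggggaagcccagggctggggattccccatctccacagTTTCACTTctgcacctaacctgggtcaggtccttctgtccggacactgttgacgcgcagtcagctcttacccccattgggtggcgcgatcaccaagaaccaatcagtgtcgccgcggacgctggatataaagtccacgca
H2-Q4: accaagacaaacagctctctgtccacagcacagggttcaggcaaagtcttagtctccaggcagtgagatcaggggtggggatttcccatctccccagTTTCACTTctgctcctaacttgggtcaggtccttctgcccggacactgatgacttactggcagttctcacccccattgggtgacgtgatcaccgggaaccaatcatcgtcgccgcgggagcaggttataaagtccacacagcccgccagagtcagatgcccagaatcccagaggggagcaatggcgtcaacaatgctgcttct
H2-T23: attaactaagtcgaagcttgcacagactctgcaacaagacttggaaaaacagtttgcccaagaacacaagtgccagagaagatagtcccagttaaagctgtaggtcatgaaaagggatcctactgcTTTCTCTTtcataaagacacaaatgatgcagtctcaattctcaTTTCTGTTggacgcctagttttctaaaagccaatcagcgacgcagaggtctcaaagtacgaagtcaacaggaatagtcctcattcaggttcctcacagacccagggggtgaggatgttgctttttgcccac
B2m: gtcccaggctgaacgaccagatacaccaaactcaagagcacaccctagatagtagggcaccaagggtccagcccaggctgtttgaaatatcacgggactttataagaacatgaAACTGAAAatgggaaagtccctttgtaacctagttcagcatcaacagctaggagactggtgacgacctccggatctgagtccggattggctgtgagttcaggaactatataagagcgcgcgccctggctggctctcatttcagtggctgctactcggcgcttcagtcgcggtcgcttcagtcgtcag
The windows of H2-K1 and H2-Q4 held TTTCACTT, the reverse-strand reading of the core, once each, H2-T23 held 2 matches and B2m held 1 on the forward strand. At least 1 match was found for all 8 class I heavy chain and B2m genes with a promoter entry, and for 10 of the 16 genes of the list with one. Tap1, Tapbp, Psmb8, Psmb9, Psmb10 and Pdia3 had no match. The motif occurs in 23.9% of all 32851 promoter windows, a share per window and not per gene. The heavy chain promoters are related by descent, and a match is a description, not a bound site.

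Interferon-induced genes had 25 of 31 members higher and 1 lower (median 1.47), and 4 higher and 9 lower by identity scaling (median -0.08). Gbp2, a guanylate-binding protein, had 34.3, 32.3 and 38.5 CPM in P5_KO libraries and 4.87, 5.08 and 3.61 CPM in E15.5_KO libraries (2.92 ± 0.26; 1.38). Ifi47, an immunity-related GTPase, rose by 2.10 ± 0.17 (0.56). Isg15 (0.64; adjusted p 0.074), Irf9, Oas2, Oasl1 and Mx1, of the type I interferon response, were not called. Inflammatory genes rose in 22 of 25 cases (median 1.57; by identity scaling 7 higher and 5 lower, median 0.18). Ptgs2, the inducible cyclooxygenase, had 10.6, 12.5 and 11.6 CPM in P5_KO libraries and 0.277, 0.98 and 0.568 CPM in E15.5_KO libraries (3.96 ± 0.31; 2.53). Microglial and macrophage markers summed to 139, 119 and 143 CPM in P5_KO libraries and 45.7, 39.4 and 38.8 CPM in E15.5_KO libraries, with 13 of 16 higher. By identity scaling 3 of them were higher and 1 lower. Other leukocyte markers summed to 16.8, 16 and 16.4 CPM in P5_KO libraries and 8.52, 5.88 and 5.16 CPM in E15.5_KO libraries, after CD45 depletion. The number of the 17 with no count in any library was 3 in P5_KO and 6 in E15.5_KO. The part of these cells in the immune genes was not tested.

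Of the 35 pathway lists, immediate early genes had the highest median, 2.46, with 17 of 18 higher, and with 12 higher and 2 lower by identity scaling (median 0.90). These genes respond quickly to many stimuli, the preparation of a cell suspension included. Egr1 had 856, 909 and 823 CPM in P5_KO libraries and 122, 141 and 151 CPM in E15.5_KO libraries. Zfp36, which promotes decay of cytokine mRNA, had 241, 243 and 235 CPM in P5_KO libraries and 20.9, 18 and 27.6 CPM in E15.5_KO libraries. Both were clear of overlap (2.64 ± 0.17 and 3.43 ± 0.22; 1.06 and 1.86 by identity scaling). The share due to preparation was not tested. Klf2 and Klf4, transcription factors of endothelium under laminar flow, rose by 2.70 ± 0.20 and 2.96 ± 0.18 (1.14 and 1.39). Klf4 had 421, 502 and 499 CPM in P5_KO libraries and 65.9, 56.6 and 60.5 CPM in E15.5_KO libraries. Of the flow-responsive list 16 of 17 rose (median 1.56), and 5 were higher and 5 lower by identity scaling.

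Nr3c1, the glucocorticoid receptor gene, had 172, 173 and 159 CPM in P5_KO libraries, against 27.1, 26.6 and 24.8 CPM in E15.5_KO libraries (2.67 ± 0.13, adjusted p 9.6e-14; 1.11 by identity scaling). Genes that glucocorticoids induce rose in 14 of 19 cases and fell in 2 (median 1.58; by identity scaling 6 higher and 6 lower). Klf9, a direct target, had 22, 19.5 and 21 CPM in P5_KO libraries and 2.16, 1.92 and 2.53 CPM in E15.5_KO libraries (3.18 ± 0.17; 1.65). The targets Fkbp5 (-1.04) and Hif3a (-1.15) fell. Clock repressor genes Nr1d1 and Nr1d2 and the period gene Per3 rose by 2.10, 2.34 and 2.31 (0.54, 0.78 and 0.76), while Nfil3, another clock-linked repressor, fell (-2.37). On the clock list 13 of 19 rose and 2 fell (median 0.75; 3 higher and 11 lower by identity scaling). The hour of collection is not given in the labels used here.

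Haemostatic genes rose in 14 of 18 cases (median 1.07; 2 higher and 10 lower by identity scaling). Plat, tissue plasminogen activator, and F5, coagulation factor V, rose by 2.01 ± 0.13 and 3.28 ± 0.25 (0.45 and 1.78). Nos3, the endothelial nitric oxide synthase, rose by 1.71 ± 0.14 by TMM, with 0.16 by identity scaling. Among guidance genes 13 rose and 11 fell of 25 (median 0.49; 1 higher and 22 lower by identity scaling), and Sema3f, a repellent semaphorin, fell to 20.3, 22.5 and 22.7 CPM in P5_KO libraries, against 170, 180 and 232 CPM in E15.5_KO libraries (-3.14 ± 0.17). Extracellular protease genes rose in 15 of 23 cases and heat shock genes in 9 of 17, with 3 and 4 lower. By identity scaling 3 proteases were higher and 15 lower, and no heat shock gene was higher and 13 were lower. On the list of endothelial to mesenchymal transition 9 of 14 rose and 1 fell (3 higher and 8 lower by identity scaling). Ly6a, the Sca-1 surface antigen of adult brain endothelium, led it with 212, 270 and 281 CPM in P5_KO libraries and 8.58, 7.98 and 6.71 CPM in E15.5_KO libraries (5.01 ± 0.25; 3.46).

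**Figure D3:**
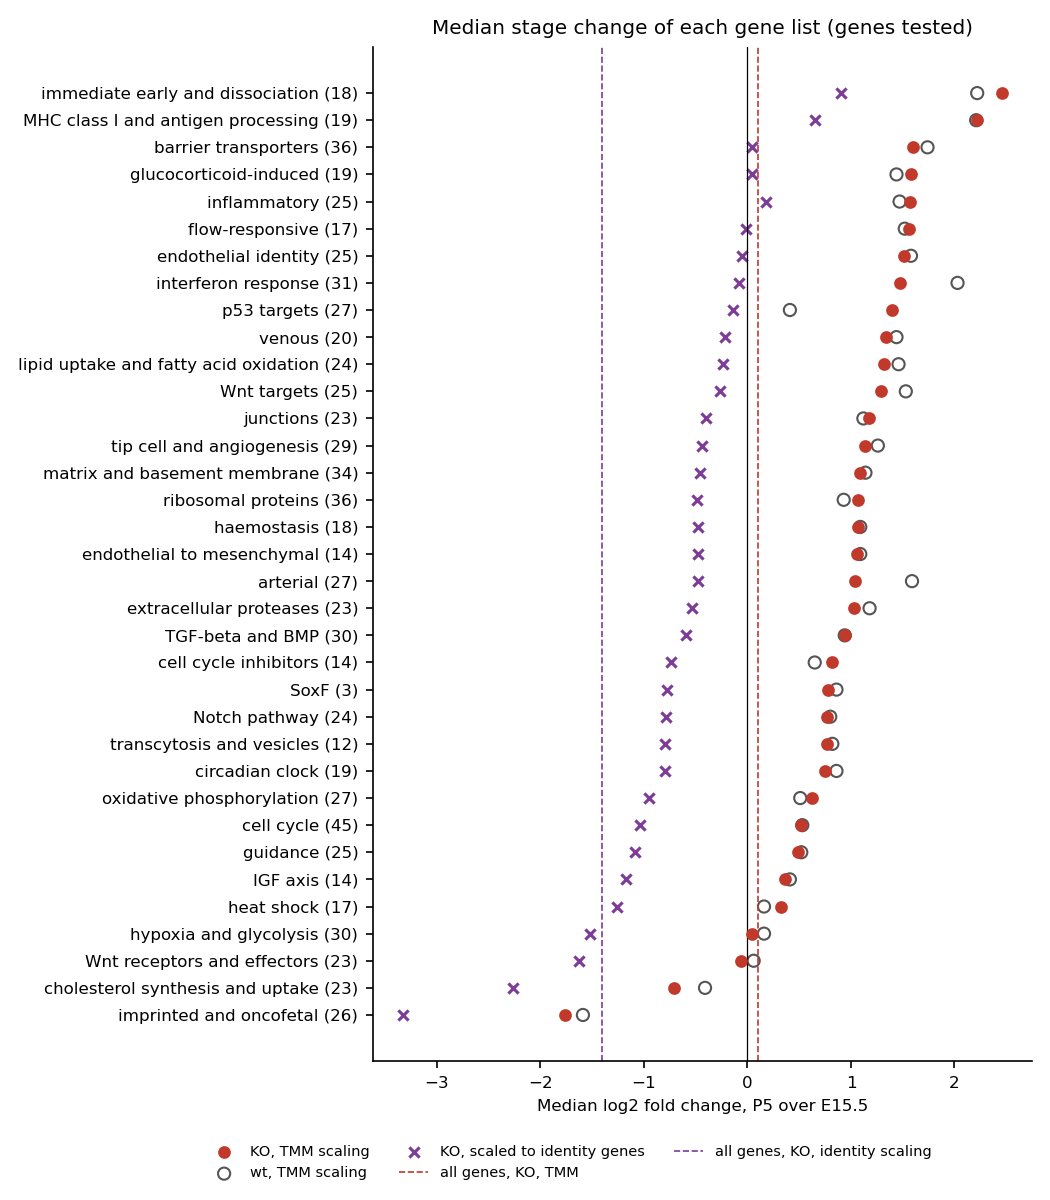
Median log2 fold change, P5 over E15.5, of the genes tested on each list, in KO by TMM (filled), in KO scaled to identity genes (crosses) and in wt by TMM (open), with dashed lines at the medians of all genes. Of these 35 lists, immediate early and MHC class I genes had the highest medians by either scaling (2.46 and 2.22, against 0.90 and 0.65 by identity scaling), and imprinted and cholesterol lists the lowest.

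Transcription factors of neurons were among the largest falls. Bcl11b, of deep-layer cortical neurons, had 3.45, 2.08 and 2.53 CPM in P5_KO libraries and 150, 130 and 197 CPM in E15.5_KO libraries. Tbr1, of the early cortical plate, had 1.33, 1.18 and 0.844 CPM in P5_KO libraries and 62.2, 65.3 and 116 CPM in E15.5_KO libraries. E15.5_KO replicate 3 was highest in both, and neither overlapped between stages. Isl1 and Lhx9, transcription factors of motor and other early neurons, had changes of -6.45 ± 0.51 and -5.83 ± 0.35. Pou4f2 and Sox14 had no count in any P5_KO library, against 376 counts each in the E15.5_KO libraries, so they were at least 98.9-fold lower in P5_KO on the floor of 3 counts over the group. Shox2 had 3 counts in P5_KO and 617 in E15.5_KO, higher in E15.5_KO by a ratio of 162 (95% counting interval 55.3 to 789). Of the most abundant genes, Tuba1a and Map1b, neuronal cytoskeleton genes, and Miat, a long RNA of neurons, had changes of -1.74 ± 0.19, -3.22 ± 0.24 and -2.60 ± 0.35. The mitochondrial transcripts mt-Cytb and mt-Rnr2 fell, with changes of -0.78 ± 0.16 and -1.19 ± 0.29.

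Glial genes were among the largest rises. Gfap, the astrocyte filament, had 70.7, 50.7 and 56.7 CPM in P5_KO libraries and 0.221, 0.312 and 0.258 CPM in E15.5_KO libraries. Aqp4, the water channel of astrocyte endfeet, had 45, 47.6 and 36.4 CPM in P5_KO libraries and 0.554, 0.579 and 0.619 CPM in E15.5_KO libraries. Both were low in every E15.5_KO library. Agt, the angiotensinogen gene of astrocytes, and Gpr37l1, an astrocyte receptor, rose by 6.14 ± 0.46 and 7.01 ± 0.33. Astrocyte markers summed to 712, 612 and 600 CPM in P5_KO libraries and 329, 332 and 338 CPM in E15.5_KO libraries, with 9 of 13 higher. By identity scaling 4 of them were higher and 6 lower. Mobp, of myelin, had 800 counts in P5_KO libraries and none in E15.5_KO libraries, so it was at least 338-fold higher, and Mag, another myelin gene, rose by 5.37 ± 0.39. Oligodendrocyte markers summed to 416, 417 and 483 CPM in P5_KO libraries and 67.4, 61 and 54.4 CPM in E15.5_KO libraries, with 9 of 10 higher. Markers of their precursors summed to 721, 831 and 825 CPM in P5_KO libraries and 341, 391 and 468 CPM in E15.5_KO libraries, led by Gpr17 (5.02 ± 0.33; 3.48 by identity scaling).

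Outside the barrier lists, Gsta4 also rose strongly by either scaling. Gsta4, a glutathione transferase that clears lipid peroxidation products, had 95.6, 118 and 106 CPM in P5_KO libraries and 2.38, 2.09 and 1.34 CPM in E15.5_KO libraries (5.69 ± 0.26; 4.18 by identity scaling). Pericyte markers rose by TMM in the same libraries, 13 of 14 with a median of 1.64. By identity scaling 1 was higher and 1 lower, with a median of 0.09. Atp13a5, the pericyte marker with the largest rise (3.94; 2.39 by identity scaling), had 290, 205 and 183 CPM in P5_KO libraries. In E15.5_KO libraries it had 17.3, 18.2 and 8.41 CPM, lowest in E15.5_KO replicate 3. Choroid plexus and ependymal markers summed to 1338, 1531 and 1654 CPM in P5_KO libraries and 510, 304 and 74 CPM in E15.5_KO libraries, again lowest in E15.5_KO replicate 3. E15.5_wt replicate 3 was likewise the lowest of its group. The E15.5_wt libraries held 540, 602 and 71.7 CPM of these markers, and 1711, 2254 and 739 CPM of pericyte markers. Fibroblast and leptomeningeal markers had 5 of 12 higher and 1 lower. Markers of peripheral and lymphatic endothelium had 7 of 10 higher and 2 lower, and summed to 522, 535 and 592 CPM in P5_KO libraries and 295, 217 and 267 CPM in E15.5_KO libraries.

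After Fn1, the largest rises in CPM were those of Bsg, Spock2, Cldn5 and Fth1. Bsg encodes basigin, the chaperone of Slc16a1, and had 6356, 7075 and 7064 CPM in P5_KO libraries and 1276, 1227 and 874 CPM in E15.5_KO libraries (2.60 ± 0.17; 1.04 by identity scaling). Spock2, a proteoglycan of the matrix, rose by 2.11 ± 0.15 (0.56). Fth1, the ferritin heavy chain that stores iron, had 3944, 4830 and 4902 CPM in P5_KO libraries and 737, 813 and 656 CPM in E15.5_KO libraries (2.63 ± 0.19; 1.06).

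Embryonic globins fell. Hbb-y, an embryonic beta-like globin, had 0.598, 0.485 and 2.03 CPM in P5_KO libraries, against 126, 216 and 301 CPM in E15.5_KO libraries (-7.47 ± 0.41; -9.03). Hba-x, the embryonic zeta globin, had 1 count in P5_KO and 12854 counts in E15.5_KO, higher in E15.5_KO by a ratio of 10100 with a counting interval of 1820 to 401000. Adult-type globins differed from them. Hbb-bs rose by TMM, by 0.99 ± 0.19, and had -0.59 by identity scaling, while Hbb-bt (0.17 ± 0.22, adjusted p 0.5) was not called. Hbb-bs and Hbb-bt are nearly identical, and reads can be split between them. Erythrocytes had been removed from the suspensions, and red cell markers summed to 678, 1167 and 1268 CPM in P5_KO libraries and 778, 1108 and 1439 CPM in E15.5_KO libraries, with 3 of 14 higher and 5 lower. Platelet markers summed to 23.2, 27.5 and 27.7 CPM in P5_KO libraries and 42.1, 43 and 51 CPM in E15.5_KO libraries, with none of 11 higher and 4 lower.

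The KO change was then set against that of wt fractions, which share no library with it. In wt 11433 genes were called, 66.6% of those tested, 36.2% higher and 30.4% lower, and libraries of the wt stages did not overlap for 68.9%. Of these, 10410 were called in both genotypes, 88.2% of the KO calls and 91.1% of the wt calls. The direction was the same for 10407 and opposite for 3. Across all genes tested, log2 fold changes correlated at Pearson's r of 0.958 and Spearman's rho of 0.951. This is a description across genes, which are not independent replicates.

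The difference of the stage change, KO minus wt, was called for 6 genes in edgeR's quasi-likelihood test, 0.035% of those tested (5 higher, 0.0291%, and 1 lower, 0.00583%), and 603 genes had an unadjusted p under 0.05. These 6 were Eda2r, Phlda3, Hbb-bs, Hbb-bt, Alas2 and Tmem100. DESeq2 called 18 and limma 7, and a fit of the 12 libraries alone called none.

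**Figure D4:**
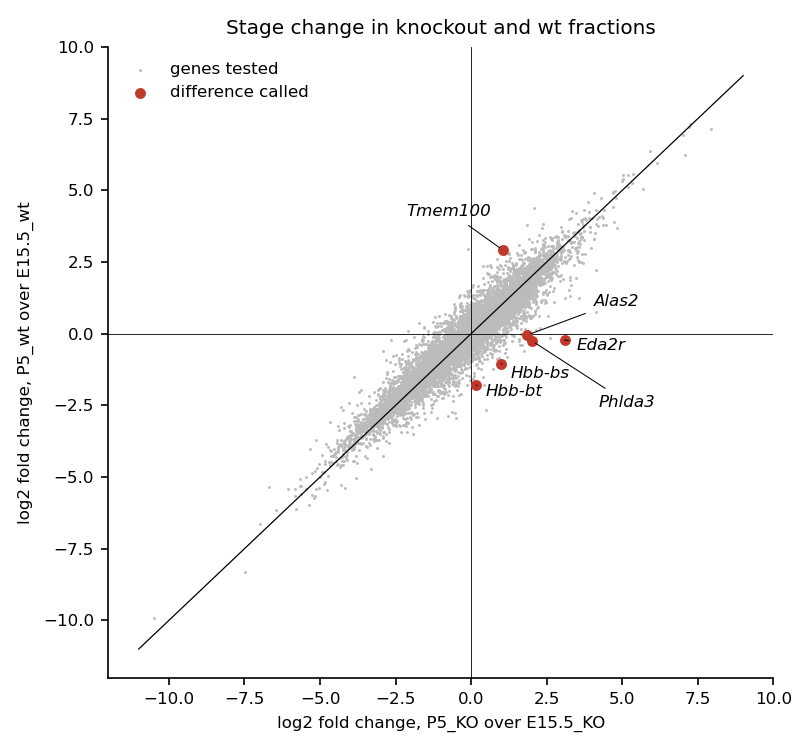
Log2 fold change of each of 17159 genes, P5_KO over E15.5_KO on the horizontal axis and P5_wt over E15.5_wt on the vertical axis, with the line of equality and the 6 genes whose change differed (red). Most genes lay near the line (Pearson's r 0.958), Tmem100 above it and the other 5 below it.

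Eda2r, a receptor of the TNF family that p53 induces, had 26.2, 10.3 and 14.1 CPM in P5_KO libraries, against 1.94, 1.83 and 1.81 CPM in E15.5_KO libraries. In wt libraries it had 0.692, 0.907 and 0.702 CPM at P5 and 0.439, 0.906 and 1.36 CPM at E15.5. The P5_KO libraries stood above all others, replicate 1 most. The stage change was 3.10 ± 0.38 in KO (1.59 by identity scaling) and -0.22 ± 0.49 in wt, a difference of 3.32 ± 0.61 (adjusted p 0.029). Phlda3, a p53-induced repressor of Akt, had 59.4, 28.1 and 34.2 CPM in P5_KO libraries, against 11.7, 8.82 and 9.5 CPM in E15.5_KO libraries. In wt libraries it had 4.36, 5.02 and 4.53 CPM at P5 and 6.59, 5.07 and 5.07 CPM at E15.5. It differed by 2.26 ± 0.40 (adjusted p 0.028), with stage changes of 2.01 ± 0.26 in KO (0.46 by identity scaling, adjusted p 0.1) and -0.25 ± 0.30 in wt. P5_KO replicate 1 was again the highest library. Neither call held in most fits without 1 library. Eda2r kept it in 4 of 12 (adjusted p 0.017 to 0.27; differences 2.85 to 3.59) and was lost without E15.5_wt replicate 3, any E15.5_KO library, any P5_wt library or P5_KO replicate 1. Phlda3 kept it in 3 of 12 (0.018 to 0.15; 1.88 to 2.46) and was lost without those libraries or without E15.5_wt replicate 1.

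p53 target genes rose in KO in 24 of 27 cases, with none lower and a median of 1.40. In wt 13 rose and 2 fell, with a median of 0.41, and the median difference was 0.62, beside -0.01 over all genes. Only Eda2r and Phlda3 of the list passed the test of the difference. The list, which holds both, was written with earlier results of these data known. Only KO animals carry Cre-ERT2, so its presence and Sox17 loss cannot be told apart. By identity scaling 5 of the list were higher and 12 lower in KO (median -0.14). Polk, a translesion DNA polymerase, had 47.1, 32.3 and 35.6 CPM in P5_KO libraries and 12, 10.8 and 11.4 CPM in E15.5_KO libraries, with replicate 1 of P5_KO highest, and its difference from wt did not pass (0.62 ± 0.18; adjusted p 0.83). Mdm2, the feedback inhibitor of p53, was not called in KO (0.05).

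Hbb-bs had 293, 511 and 554 CPM in P5_KO libraries, against 189, 239 and 253 CPM in E15.5_KO libraries. In wt libraries it had 412, 481 and 662 CPM at P5 and 944, 1305 and 970 CPM at E15.5. The E15.5_KO libraries were the lowest of the 12, and the E15.5_wt libraries were the highest. Its stage change was 0.99 ± 0.19 in KO and -1.05 ± 0.19 in wt, a difference of 2.04 ± 0.27 (adjusted p 0.0019) that was called in all 12 fits without 1 library. Alas2, the first enzyme of haem synthesis in red cells, had 39.2, 54.6 and 48.6 CPM in P5_KO libraries, against 10.1, 13.5 and 15.7 CPM in E15.5_KO libraries. In wt libraries it had 38.6, 81.5 and 57.2 CPM at P5 and 51.8, 69.2 and 62.1 CPM at E15.5. Here the E15.5_KO libraries stood below all others. The difference was 1.89 ± 0.30 (adjusted p 0.01). Hbb-bt had 66.8, 117 and 119 CPM in P5_KO, 61.9, 87.6 and 120 CPM in E15.5_KO, 91.2, 142 and 158 CPM in P5_wt and 408, 527 and 418 CPM in E15.5_wt, highest in E15.5_wt, with a difference of 1.95 ± 0.31 (adjusted p 0.01). The calls of Alas2 and Hbb-bt were lost without E15.5_KO replicate 1 (adjusted p 0.052 in each case) and called in the other 11 fits. The whole red cell list summed to 678, 1167 and 1268 CPM in P5_KO, 778, 1108 and 1439 CPM in E15.5_KO, 943, 1458 and 1506 CPM in P5_wt and 2866, 3770 and 2876 CPM in E15.5_wt. Embryonic globins went the other way at E15.5. Hba-x and Hbb-y had means of 212 and 214 CPM in E15.5_KO and 122 and 136 CPM in E15.5_wt, with overlapping libraries. Platelet markers summed to 74.6, 93.4 and 68.9 CPM in E15.5_wt, above the 42.1, 43 and 51 CPM of E15.5_KO. In P5_wt they summed to 28.6, 30.7 and 26.9 CPM. Of 11 platelet markers tested, 10 fell in wt and 4 in KO. Their median difference of the stage change was 0.87, beside 0.90 for the red cell list, and no platelet marker was called for it. The part of red cell and platelet content in the differences between genotypes was not tested.

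Tmem100, a membrane protein that BMP9 and ALK1 induce in arterial endothelium, was the one gene of the 6 with the smaller rise in KO. It had 9.1, 13.7 and 11.1 CPM in P5_KO libraries, against 7.09, 3.92 and 5.06 CPM in E15.5_KO libraries. In wt libraries it had 26.1, 27.4 and 31.6 CPM at P5 and 3.51, 4.77 and 2.71 CPM at E15.5. The P5_wt libraries stood above all others. It rose by 1.06 ± 0.23 in KO by TMM (-0.46 by identity scaling) and by 2.91 ± 0.24 in wt, a difference of -1.85 ± 0.33 (adjusted p 0.028). The call held in 3 of 12 fits without 1 library (0.02 to 0.14; -2.08 to -1.60) and was lost without E15.5_wt replicate 1 or 3, E15.5_KO replicate 1 or 3, any P5_wt library, or P5_KO replicate 1 or 3. Smooth muscle markers, which mark the arterial wall, were higher at P5 in both genotypes, at 923, 832 and 827 CPM in P5_KO and 950, 1036 and 790 CPM in P5_wt. Much of this sum was Smtn, with means of 508 CPM in P5_KO and 502 CPM in P5_wt. Means were lower in P5_KO than in P5_wt for Acta2 (19.3 and 29.3 CPM), Myh11 (6.28 and 12.4 CPM) and Des (23.3 and 30.7 CPM). Over the 8 genes tested the median difference of the stage change was -0.34, and none was called.

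**Figure D5:**
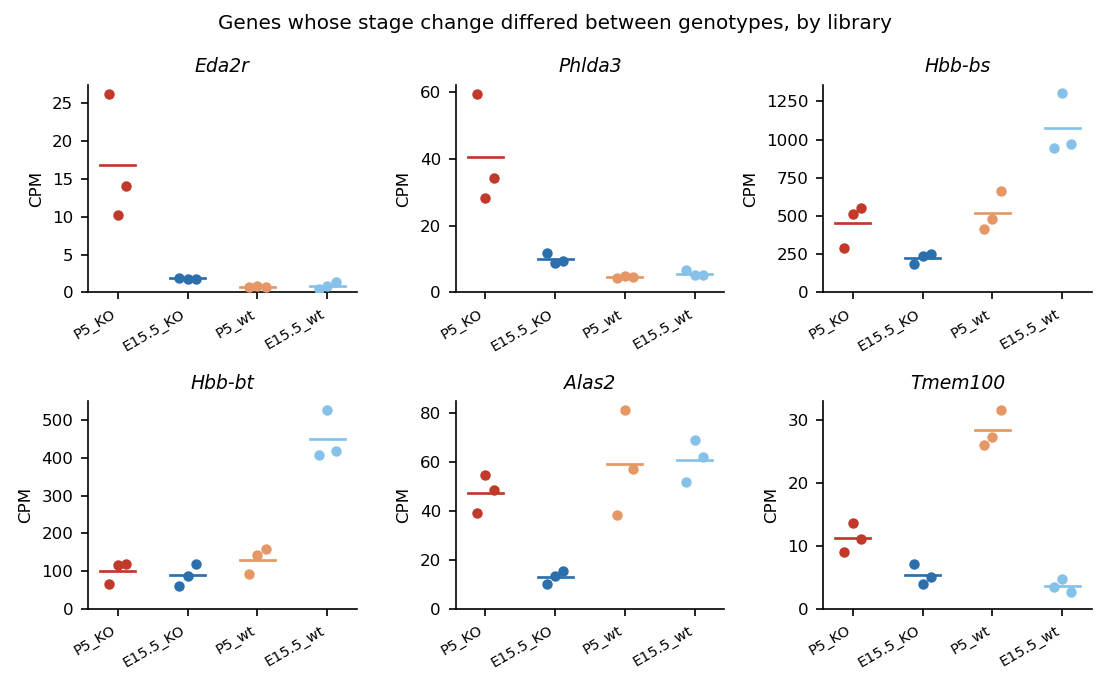
CPM per library (TMM-scaled library sizes, linear axes from 0) of the 6 genes whose stage change differed between genotypes, in P5_KO, E15.5_KO, P5_wt and E15.5_wt, with lines at group means. Eda2r and Phlda3 were highest in P5_KO, Hbb-bs and Hbb-bt in E15.5_wt, Tmem100 in P5_wt, and Alas2 was lowest in E15.5_KO.

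Arterial and interferon lists had smaller KO medians than wt medians, 1.04 in KO and 1.59 in wt for arterial genes and 1.47 in KO and 2.03 in wt for interferon genes. The median difference per gene was -0.12 for arterial genes and -0.51 for interferon genes, beside -0.01 over all genes. The arterial value was like those of the venous (-0.11), tip cell (-0.12) and matrix (-0.17) lists. Cholesterol (-0.36) and glucocorticoid (0.48) lists lay further from the value of all genes. The levels of the arterial and interferon lists differed from each other. The interferon list had mean sums of 560 CPM in E15.5_KO and 300 CPM in E15.5_wt, and of 1173 CPM in P5_KO and 736 CPM in P5_wt. Its smaller KO change thus started from a higher level. The arterial list had mean sums of 1940 CPM in E15.5_KO and 2147 CPM in E15.5_wt, and of 4857 CPM in P5_KO and 5753 CPM in P5_wt. Of the arterial list Tmem100 was called for the difference, and of the interferon list none was. Gja5 had 17.8, 19.8 and 12.9 CPM in P5_wt libraries and 10.3, 12.2 and 15.2 CPM in E15.5_wt libraries, and its difference was -0.73 ± 0.46 (adjusted p 1). Rp1, the next protein-coding gene beside Sox17 and known from photoreceptors, had 55.3, 65.3 and 61.2 CPM in P5_KO libraries and 15.8, 11.4 and 14 CPM in E15.5_KO libraries (2.13 ± 0.19; 0.58 by identity scaling). In wt libraries Rp1 was low, at 1.59, 3.44 and 1.53 CPM at P5 and 1.39, 1.21 and 1.06 CPM at E15.5. Esr1, the estrogen receptor gene, had 20.6, 19.7 and 18.7 CPM in P5_KO libraries and 14.8, 9.45 and 7.48 CPM in E15.5_KO libraries (0.89 ± 0.25; -0.64). In wt libraries Esr1 was low, at 1.11, 1.09 and 0.702 CPM at P5 and 0.439, 0.121 and 0.236 CPM at E15.5. Every KO library was above every wt library for both genes. Cre-ERT2, which only KO animals carry, contains a part of the human estrogen receptor, and the source of the Esr1 counts was not tested. For Rp1 and Esr1 the differences of the stage change from wt did not pass, with adjusted p of 0.64 and 1. For several barrier genes the changes in the 2 genotypes stood side by side: Slc16a1 changed by 7.22 in KO and 7.20 in wt, Car4 by 5.20 and 5.11, Cldn5 by 2.26 and 1.99, Mfsd2a by 1.87 and 1.82, and Plvap by -1.20 and -1.10. Wider apart were Slco1a4, at 7.93 in KO and 7.13 in wt (difference 0.80 ± 0.43), and Abcb1a, at 2.63 and 2.33. None of these passed the test of the difference, which does not show that the changes were equal.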

How the data were processed

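RNA of CD31-selected brain cell fractions was sequenced from 3 libraries per group, 24 in all (polyadenylated RNA, strand-specific Ion Proton libraries, per the labels' protocols). Per the submitters' processing notes, the tools were STAR 2.5.3a, SAMtools 1.5, FastQC and Trim Galore 0.4.1 with the mm10 genome; the counting tool and the annotation release are not given in the sources used here. The authors deposited strand-matched counts per gene, not normalised, and TPM beside them, which adjust for length and were used here only to compare levels between genes. Counts were tested in edgeR 4.0.16 (R 4.3.3) with TMM scaling and 1 mean per group over all 24 libraries (16 residual degrees of freedom), on the 17159 genes averaging 10 counts or more in 1 of the groups or several. CPM are counts scaled to the TMM-adjusted library size. Alternatives used DESeq2 1.42.0, limma 3.58.1, other scalings and filters, a replicate block and fits without 1 library. For E15.5_KO and P5_KO libraries with the same number, deviations from the group mean correlated at -0.12, -0.11 and 0.014, so the numbers do not pair them. Pairing of KO and wt libraries with the same number within a stage was not checked. In simulated counts, 67.2% of 2-fold and 98.5% of 4-fold changes were recovered. There 16959 of the 17159 genes were left unchanged, whereas 11799 were called in the data. The adjustment was therefore stricter in the simulation, and these rates are not those of the comparison itself. Genes named are Sox17, the 10 largest log2 changes and 5 largest CPM changes each way, up to 4 genes of smallest p per list, and a set list of vascular genes. Members and lists were chosen with earlier results of these data known. Sequencing pools are not named in the labels, so they could not be checked. Results of a few genes are not reported here.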

Additional observations from a re-analysis of the deposited data

Results flagged for a closer look

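The stage change (P5 over E15.5, log2) differed between KO and wt fractions in the edgeR test of the difference for 6 genes, and this is what marks them. The difference, KO minus wt, was 3.32 for Eda2r, 2.26 for Phlda3, 2.04 for Hbb-bs, 1.95 for Hbb-bt, 1.89 for Alas2 and -1.85 for Tmem100. In fits without 1 of the 12 libraries, Hbb-bs was called in all 12, Hbb-bt and Alas2 in 11, Eda2r in 4, and Phlda3 and Tmem100 in 3. Over all 23 alternatives the calls numbered 21 for Hbb-bs, 20 for Hbb-bt, 20 for Alas2, 11 for Eda2r, 11 for Phlda3 and 10 for Tmem100. The 3 red cell genes share their libraries, and the globins may share reads, so they are not separate observations.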

How the results depend on the processing

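Library totals and DESeq2 size factors in place of TMM shifted the median change of all genes by -0.19 and -0.09 on the log2 scale. Library totals alone called 5174 higher and 6476 lower in KO. In KO, a fold threshold of log2 1 left 4322 called genes (1886 higher, 2436 lower), and identity scaling gave 655 higher and 13816 lower. In wt the same settings gave 3977 (1755 higher, 2222 lower), and 663 higher and 13728 lower. For the difference between genotypes, DESeq2 called 18 (10 higher, 8 lower), no low-count filter 64 (34 higher, 30 lower), and the fold threshold and a fit of the compared libraries alone 0, with 0 in each direction. Identity scaling gave 2 lower. Without both E15.5 libraries numbered 3 the test called 3 (3 higher, 0 lower). Without 1 library it called 1 (without E15.5_KO replicate 1) to 16 (without E15.5_wt replicate 2), with 1 to 7 higher and 0 to 10 lower. The corresponding KO range was 11006 to 11396. The cause of these changes was not tested.

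The replicate block, added although the numbers do not pair the libraries, gave 11115 called genes in KO, 10262 in wt and 4 (4 higher, 0 lower) for the difference.

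Of 217 named genes, 53 changed direction by identity scaling, among them, with their log2 fold changes, Sox17 -0.69, Hbb-bs -0.59, Hbb-bt -1.43, Tmem100 -0.46, Sox7 -0.78, Sox18 -0.78, Lef1 -0.86, Axin2 -1.35, Cav1 -0.15, Slc2a1 -0.72, Cdh5 -0.32, Pecam1 -0.34, Kdr -0.19, Mki67 -1.03, Igf2 -0.71, Esr1 -0.64, Esm1 -1.16, Angpt2 -0.26, Ehd4 -0.43, Slc38a5 -0.18, Adam17 -0.45, Maml2 -0.38, Tie1 -0.07, Cdk2 -0.26, Pcna -0.37, Cdk1 -0.73, Nusap1 -0.80, Igfbp7 -0.11, Igfbp4 -0.35, Insr -0.65, Nfkbia -0.05, Rela -0.47, Ifitm2 -0.07, Sdhd -0.64, Ndufa4 -0.59, Sdhc -0.73, Ndufa2 -0.53, Lrp8 -0.68, Sema6a -0.45, Adam10 -0.34, Dnajb1 -0.36, Hspb8 -0.26, Rpl32 -0.35, Rpl38 -0.19, Rps19 -0.12, Rpl13 -0.49, Rora -0.21, Zeb1 -0.62, Smtn -0.06, Foxc1 -0.13, Notch1 -0.38, and Itgam -0.06. Hbb-bt was -0.04 by library totals and ranged between -0.04 (without E15.5_KO replicate 1) and 0.43 without 1 library, Gja5 was 0.08 without E15.5_KO replicate 3 and without both E15.5 libraries numbered 3, and Esm1 ranged between -0.17 (without P5_KO replicate 1) and 0.82.

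With 3 libraries per group, small changes can be missed. In simulated counts of the KO stage comparison, with 16959 of 17159 genes left unchanged, 37.3% of 1.5-fold changes were recovered. With 11799 genes called in the data the adjustment is less strict, so this rate does not give the recovery there. The difference between genotypes was not simulated.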
